A study of Homo sapiens with 6 samples.

Results

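NAA50 and the other N-terminal acetyltransferase genes were examined in HepG2 cells that carried a knockout of miR-23a or of miR-27a. The genes were chosen by name, as catalytic and auxiliary subunits of the human N-terminal acetyltransferases, and all 10 were found among the 20026 genes of the expression table. They are not the full set, and NAA11, NAA38 and NAA80 are given below in a separate list. NAA50 is among the candidate targets that the study selected on these same libraries, so its values here are not independent evidence for that selection.

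HepG2 is an established human liver cancer cell line. The study asked which genes respond when single miRNAs of a shared cluster are removed from these cells. mRNA libraries were compared between 3 groups of 2 libraries each. The control group, Scr, carried the scramble control and is labelled wild type, the miR-23a KO group carried a CRISPR deletion in miR-23a, and the miR-27a KO group carried a CRISPR deletion in miR-27a. The knockout cells were grown from single sorted cells, and the labels do not say whether the 2 libraries of a group came from separate clones, cultures or extractions, so the p-values measure only the spread between these libraries, which may be technical. The mature miRNAs are not measured in such libraries, and the deletions were not checked here. By the qPCR of the study, each knockout also altered other mature miRNAs of the cluster, so a difference in a knockout cannot be assigned to 1 miRNA.

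Most human proteins receive an acetyl group on their first residue, usually while the chain is still on the ribosome. NatA, built from the catalytic subunit NAA10 and the auxiliary subunit NAA15 or its paralog NAA16, modifies the small residues exposed once the first methionine is removed, and NAA50 joins the same complex to form NatE. NatB, NatC, NatD and NatF act on other N termini, and miRNAs such as miR-23a-3p and miR-27a-3p lower the output of mRNAs whose 3′-UTR pairs with the miRNA seed.

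The mature miRNAs are shown because their seeds, bases 2 to 8 in capitals, define which mRNAs can pair with them, and the seeds of the pair differ (RefSeq sequences, build GRCh38.p14).
miR-23a-3p: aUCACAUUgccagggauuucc
miR-27a-3p: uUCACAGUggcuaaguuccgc
Of the 10 genes, 3 had a 3′-UTR match to a seed in GENCODE 29 (GRCh38), searched on the transcript strand as AATGTGA for miR-23a-3p and ACTGTGA for miR-27a-3p in the longest annotated 3′-UTR. A match to the first was present in 20.7% and to the second in 18.3% of the 15926 genes with an annotated 3′-UTR, and 6.5% held both. NAA50 and NAA15 held 1 match to each seed, and NAA16 held 1 match to the miR-23a-3p seed. The matches are shown in capitals with their flanking bases.
NAA50, miR-23a-3p match: agtttttatttgagAATGTGAaagt
NAA50, miR-27a-3p match: ataatacaaatgtcACTGTGAcctc
NAA15, miR-23a-3p match: cataggaagtatgcAATGTGAatca
NAA15, miR-27a-3p match: caagaaccaaatgcACTGTGAtgtg
NAA16, miR-23a-3p match: gtagatgatttcagAATGTGAaggc
The NAA50 matches lie on the minus strand at chr3:113720178-113720184 for miR-23a-3p and chr3:113720519-113720525 for miR-27a-3p, at positions 1576 and 1235 of a 3′-UTR of 5300 bases. Those in NAA15 lie on the plus strand at chr4:139388580-139388586 and chr4:139388874-139388880, and the one in NAA16 on the plus strand at chr13:41376453-41376459. A match is a description of the sequence and was not tested as a site.

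The libraries held 14405250 to 16515261 counts. These are estimated counts, rounded to whole numbers, and levels are given as CPM, the counts scaled to a common library size with TMM factors over the 6 libraries. The libraries stood apart in how closely they matched within a group. Over 8411 genes with at least 100 counts in every library, the median distance between the 2 libraries was 0.20 on the log2 scale for Scr, 0.85 for miR-23a KO and 0.06 for miR-27a KO. The miR-23a KO libraries differed by more than 2-fold for 43.6% of 13556 genes, against 5.08% in Scr and 1.12% in miR-27a KO. The edgeR fits were repeated with each library left out, as planned for the 10 genes, which were chosen with earlier results of these data known. A fit with 1 library left in a group takes its spread from the other group alone. Adjusted p-values and calls from such fits are therefore not comparable with those of the full fits. For a lone miR-23a KO library, the other pair lay closer together than the miR-23a KO libraries did.

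The label of a liver cancer line was checked against marker genes. The 11 hepatocyte markers were all detected in every library and summed to between 25800 and 37100 CPM. SERPINA1 had the highest count of them summed over the libraries, though ALB exceeded it in Scr replicate 2 and miR-23a KO replicate 2. In miR-27a KO 4 of the 11 were above Scr in both libraries and 6 were below, beside 33.4% and 31.0% of all genes tested, and in miR-23a KO 0 were above and 1 below, beside 9.91% and 13.7%. ALB was at 10200 and 15000 CPM in the Scr libraries and at 2090 and 2150 in those of miR-27a KO, AFP at 2550 and 3890 beside 184 and 191, and TF at 3260 and 2250 beside 6550 and 6740, 3 genes chosen after their values were seen. Of 2 mesenchymal markers, COL1A1 had at most 2 counts and PDGFRB was at 17.1 and 29.1 CPM for Scr, 30 and 20.0 for miR-23a KO, and 5.63 and 5.11 for miR-27a KO. Of 6 blood and endothelial markers, CD68 was the most abundant, at 159 and 151 CPM for Scr, 137 and 72.0 for miR-23a KO, and 107 and 103 for miR-27a KO, while the leukocyte genes PTPRC and CD3E had at most 2 and 7 counts. The part of these markers in the results for the 10 genes was not tested.

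NAA50 (gene ID 80218, on the minus strand at chr3:113716460-113746300) encodes the catalytic subunit of NatE. The Scr libraries held NAA50 at 12.4 and 16.1 CPM, those of miR-23a KO at 16.4 and 55.1, and those of miR-27a KO at 17.0 and 26.8. All 4 knockout libraries were above both Scr libraries, but miR-23a KO replicate 1 exceeded Scr replicate 2 by less than the counting error of either library, which was 6.82% and 6.45%. The same held for miR-27a KO replicate 1, with a counting error of 5.97%. miR-23a KO replicate 2 stood far above the other 5 libraries. The group means were 14.2 ± 2.64 CPM for Scr, 35.8 ± 27.4 for miR-23a KO and 21.9 ± 6.93 for miR-27a KO (SD, n = 2). In miR-23a KO against Scr the log2 fold change was 1.39 with a standard error of 0.66 and a 95% interval from -0.13 to 2.91 (edgeR quasi-likelihood test, Benjamini-Hochberg adjusted p = 1.0). Leaving out replicate 1 of miR-23a KO gave 1.96 (edgeR adjusted p = 0.0118), leaving out replicate 2 gave 0.18 (adjusted p = 0.779), and over all alternatives the adjusted p ranged from 0.0118 to 1.0. In miR-27a KO against Scr the NAA50 log2 fold change was 0.60 with a standard error of 0.27 and a 95% interval from -0.08 to 1.28 (edgeR adjusted p = 0.192). It was 0.24 with replicate 2 of miR-27a KO left out, 0.90 with replicate 1 left out, 0.44 with Scr replicate 1 left out, and 0.80 with Scr replicate 2 left out (edgeR adjusted p = 0.0261), and over all alternatives the adjusted p ranged from 0.0261 to 0.991. Both comparisons share the Scr libraries.

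**Figure D1:**
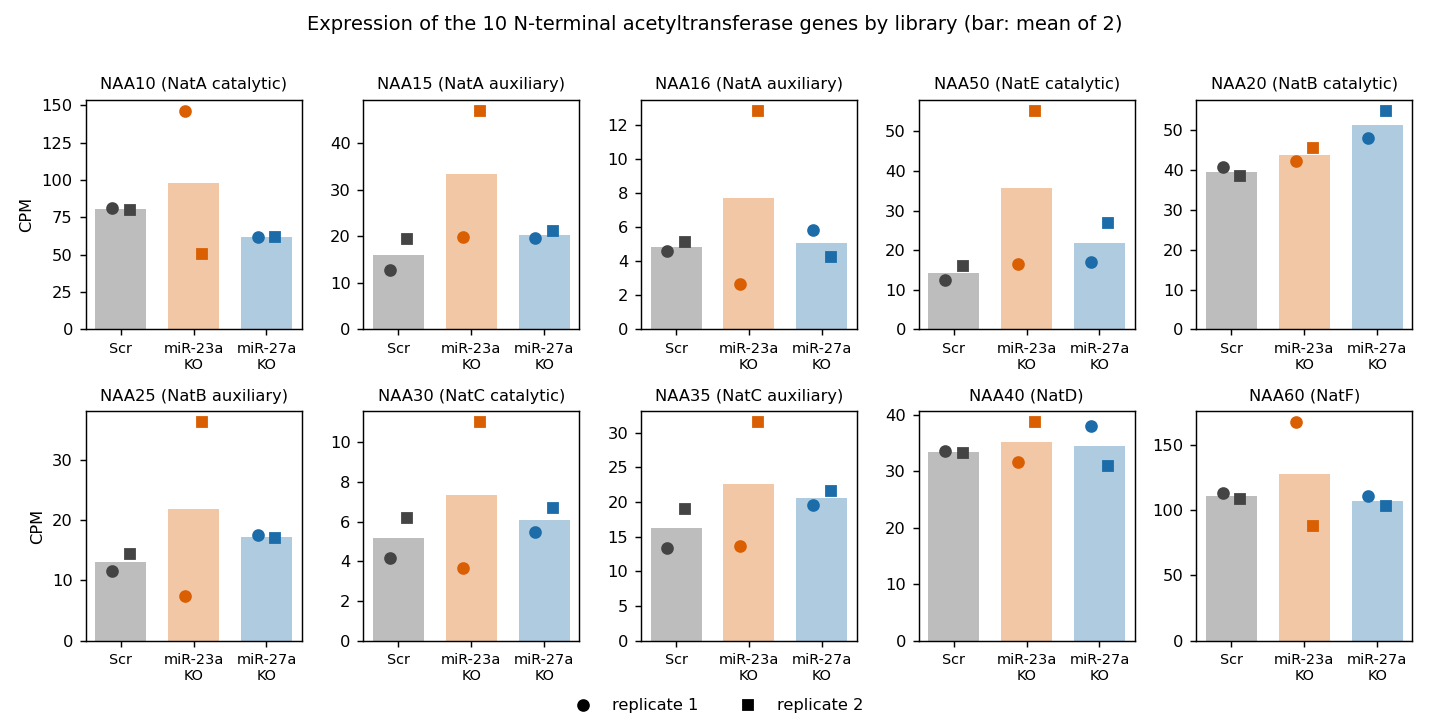
CPM of each gene in each library, with circles for replicate 1, squares for replicate 2 and bars for the mean of the 2 libraries of a group. NAA50 is at 55.1 CPM in miR-23a KO replicate 2 and between 12.4 and 26.8 CPM in the other libraries, and NAA10 and NAA60 show the opposite order of the miR-23a KO libraries.

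The 2 miR-27a KO libraries lay close together for most genes but not for NAA50, a distance that was examined after the values had been seen. NAA50 was 1.58 times higher in replicate 2 than in replicate 1, a log2 distance of 0.64, and 14 of the 8411 genes with at least 100 counts in every library (0.166%), NAA50 included, were at least as far apart in that pair. The same log2 distance for NAA50 was 0.37 for the Scr pair, where 24.8% of those genes were as far apart, and 1.72 for the miR-23a KO pair, where 11.4% were. Of the 14 genes, 12 had fractional deposited values in both miR-27a KO libraries, against 65.6% of the 8411. In estimated counts, fractions arise where reads are shared out between genes or transcripts. NAA50 was fractional in all 6 libraries. The processed pseudogene AC108693.1 overlaps it on the same strand by 432 bases. Of the runs of 50 bases in the longest listed transcript of NAA50, 0.148% also occur in transcripts of other genes. How its reads were divided was not tested.

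**Figure D2:**
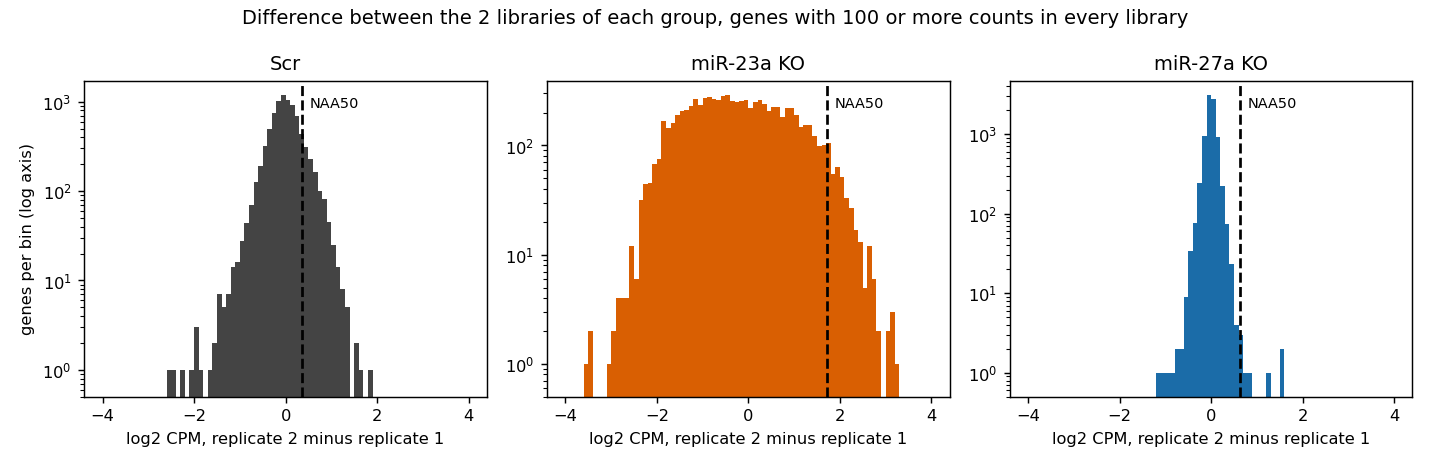
Number of genes (log axis) by the difference in log2 CPM between replicate 2 and replicate 1 of each group, over 8411 genes with at least 100 counts in every library. The dashed line marks NAA50, which lies at 0.37 in Scr, inside the wide range of miR-23a KO at 1.72, and at the edge of the narrow miR-27a KO range at 0.64.

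NAA10 (gene ID 8260) encodes the catalytic subunit of NatA, and its libraries stood at 81.2 and 80 CPM for Scr, 146 and 50.5 for miR-23a KO, and 61.8 and 62.1 for miR-27a KO. The miR-27a KO libraries were both below both Scr libraries, whereas the miR-23a KO libraries lay on either side of them. In miR-27a KO against Scr the log2 fold change of NAA10 was -0.40 with a standard error of 0.08 and a 95% interval from -0.61 to -0.19 (edgeR, adjusted p = 0.0382, lower in 2 of 2 libraries), the one adjusted p under 0.05 among the 10 genes in that comparison, where 14.0% of all genes tested had one. At 0.759 times the control level this difference was smaller than the 1.5-fold that the study required. With each library corrected for the GC content and length of its transcripts, the log2 fold change was -0.09 (edgeR adjusted p = 0.548). With replicate 1 or replicate 2 of miR-27a KO left out, the log2 fold change of NAA10 was -0.39 and -0.40, with edgeR adjusted p-values of 0.44 and 0.45. The adjusted p was also above 0.05 with the replicate block (-0.397, edgeR adjusted p = 0.0551), without the filter (-0.379, 0.0682), with all 6 libraries in 1 fit (-0.394, 0.991) and with the block and the correction together (-0.0921, 0.654), and over all alternatives the adjusted p ranged from 0.000502 to 0.991. In miR-23a KO against Scr the log2 fold change of NAA10 was 0.29 ± 0.54 (SE), and it was -0.665 with replicate 1 of miR-23a KO left out and 0.83 with replicate 2 left out (edgeR adjusted p = 0.0123). NAA10 lies on the minus strand at chrX:153929242-153935223 and overlaps ARHGAP4 on the same strand by 5758 bases, and 25.1% of the runs of 50 bases in its longest listed transcript occur in transcripts of ARHGAP4 or other genes, so part of its count is uncertain.

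NAA15 (gene ID 80155) is the ribosome-anchoring auxiliary subunit shared by NatA and NatE, with 12.7 and 19.3 CPM in the Scr libraries, 19.8 and 46.8 in those of miR-23a KO, and 19.6 and 21.0 in those of miR-27a KO. Its paralog NAA16 (gene ID 79612) had 4.58 and 5.10 CPM in the Scr libraries, 2.67 and 12.8 in those of miR-23a KO, and 5.81 and 4.27 in those of miR-27a KO. For NAA15 all 4 knockout libraries were above both Scr libraries, and 2 of them, at 19.6 and 19.8 CPM, were above Scr replicate 2 by less than its counting error of 5.90%, whereas for NAA16 the knockout libraries lay on either side of Scr in both groups. The log2 fold change of NAA15 against Scr was 1.11 ± 0.59 (SE) for miR-23a KO and 0.32 ± 0.22 for miR-27a KO, with edgeR adjusted p-values of 1.0 and 0.372. With the GC content and length correction that for miR-23a KO was 0.596. Leaving out replicate 1 of miR-23a KO gave 1.56 for NAA15 (edgeR adjusted p = 0.0242), leaving out replicate 2 gave 0.28 (0.641), and over all alternatives the adjusted p ranged from 0.0242 to 1.0. For NAA15 in miR-27a KO, leaving out Scr replicate 2 gave 0.645 (edgeR adjusted p = 0.00329), leaving out Scr replicate 1 gave 0.07 (0.694), and the GC content and length correction gave 0.16, with a range of the adjusted p from 0.00329 to 0.991. NAA16 rested on 35 to 234 counts per library, which gives counting errors of up to 16.9%. NAA15 overlaps NDUFC1 by 1097 bases and the antisense gene AC097376.2 by 8107 bases, both on the opposite strand, and whether the counting used strand is not given in the sources used here.

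Expressed per kilobase of the longest listed transcript, the level of NAA10 was 22.4 and 14.6 times that of NAA15 in the Scr libraries, 25.8 and 3.80 times in those of miR-23a KO, and 11.1 and 10.4 times in those of miR-27a KO. The ratio was thus lower in both miR-27a KO libraries than in either Scr library, and it spanned the widest range in miR-23a KO. The ratio of NAA50 to NAA15 on the same scale was 0.987 and 0.848 for Scr, 0.842 and 1.2 for miR-23a KO, and 0.882 and 1.30 for miR-27a KO, so that in each knockout group 1 library was above the Scr range and the other was below its upper end.

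NAA20 (gene ID 51126) is the catalytic subunit of NatB, which acts on methionine followed by an acidic or amide residue, and its level was 40.9 and 38.4 CPM in the Scr libraries, 42.2 and 45.5 in those of miR-23a KO, and 48.0 and 54.8 in those of miR-27a KO. The auxiliary subunit NAA25 (gene ID 80018) had 11.6 and 14.4 CPM in the Scr libraries, 7.49 and 36.3 in those of miR-23a KO, and 17.6 and 17.0 in those of miR-27a KO. Both subunits were above Scr in both miR-27a KO libraries, and NAA20 was also above Scr in both miR-23a KO libraries, while NAA25 was on either side of it there. For NAA20, miR-23a KO replicate 1 exceeded Scr replicate 1 by less than the counting error of either library, 4.26% and 4.09%. The log2 fold changes in miR-27a KO were 0.36 ± 0.12 (SE) for NAA20 and 0.40 ± 0.17 for NAA25, with edgeR adjusted p-values of 0.104 and 0.184. Without Scr replicate 1 or replicate 2 that of NAA20 was 0.417 and 0.303 (edgeR adjusted p = 0.0078 and 0.0273), with a range of the adjusted p over all alternatives from 0.0078 to 0.98. That of NAA25 was 0.262 and 0.553 (edgeR adjusted p = 0.149 and 0.00857), with a range from 0.00857 to 0.991. With the GC content and length correction they were 0.405 for NAA20 and 0.211 for NAA25. The log2 fold change of NAA25 in miR-23a KO was 0.83 ± 0.75, and it was 1.49 with replicate 1 of miR-23a KO left out and -0.82 with replicate 2 left out. It was 0.405 with the replicate block, 0.2 with the GC content and length correction and 0.134 with both. Against Scr, the log2 fold changes of NAA20, NAA16, NAA30, NAA35, NAA40 and NAA60 in miR-23a KO lay between 0.11 and 0.75. Of these log2 fold changes, all but that of NAA20 changed sign when replicate 1 or replicate 2 of miR-23a KO was left out. That of NAA20 was 0.18, and it was 0.21 and 0.06 without replicate 1 or replicate 2 of miR-23a KO. NAA20 was the member whose miR-23a KO libraries were closest, 1.08-fold apart. NAA25 overlaps the antisense gene AC073575.1 on the opposite strand by 1847 bases, with the same limit on its count as for NAA15.

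NAA30 (gene ID 122830) is the catalytic subunit of NatC, which acts on methionine followed by a hydrophobic residue, and its level was 4.17 and 6.18 CPM in the Scr libraries, 3.67 and 11 in those of miR-23a KO, and 5.45 and 6.67 in those of miR-27a KO. The auxiliary subunit NAA35 (gene ID 60560) had 13.4 and 19.0 CPM in the Scr libraries, 13.6 and 31.5 in those of miR-23a KO, and 19.6 and 21.6 in those of miR-27a KO. Only NAA35 in miR-27a KO was separated from Scr among these 4 pairs of groups, with a log2 fold change of 0.33 ± 0.21 (SE, edgeR adjusted p = 0.326) that was 0.59 with Scr replicate 2 left out (edgeR adjusted p = 0.00562) and 0.11 with Scr replicate 1 left out (0.526). It was 0.145 with the GC content and length correction, and over all alternatives the adjusted p of NAA35 ranged from 0.00562 to 0.991. NAA35 in miR-27a KO replicate 1 exceeded Scr replicate 2 by less than the counting error of either library, 5.56% and 5.94%. The ratio of NAA30 to NAA35 per kilobase lay between 0.0935 and 0.121 over the 6 libraries, a far narrower range than that of NAA10 to NAA15.

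NAA40 (gene ID 79829), the enzyme of NatD, acetylates histones H2A and H4, and its level was 33.7 and 33.2 CPM in the Scr libraries, 31.6 and 38.7 in those of miR-23a KO, and 38.0 and 30.9 in those of miR-27a KO. NAA60 (gene ID 79903), the Golgi-bound enzyme of NatF, had 113 and 108 CPM in the Scr libraries, 167 and 87.8 in those of miR-23a KO, and 111 and 103 in those of miR-27a KO. Neither gene separated a knockout group from Scr. NAA60 shares 8.13% of the runs of 50 bases in its longest listed transcript with other genes, chiefly AC025283.3, which overlaps it on the same strand by 35940 bases.

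In Scr the mean level per kilobase was highest for NAA10 at 45.5 ± 0.474 CPM, followed by NAA60 at 42.2 ± 1.51, NAA20 at 31.5 ± 1.39, NAA40 at 9.13 ± 0.104 and NAA35 at 6.12 ± 1.5 (SD, n = 2). NAA15 at 2.57 ± 0.745, NAA50 at 2.32 ± 0.431 and NAA25 at 2.16 ± 0.331 came next, and NAA15 overlapped NAA50, which overlapped NAA25, between libraries. NAA16 at 1.11 ± 0.0850 and NAA30 at 0.677 ± 0.186 were lowest. In miR-27a KO the order began with NAA60 at 40.9 ± 2.06 and NAA20 at 40.8 ± 3.82, which overlapped, followed by NAA10 at 35 ± 0.111. In miR-23a KO the libraries of NAA20 and NAA40 were the one pair of neighbours in the order that did not overlap. The lengths come from annotation, and the transcripts used in these cells were not determined.

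**Figure D3:**
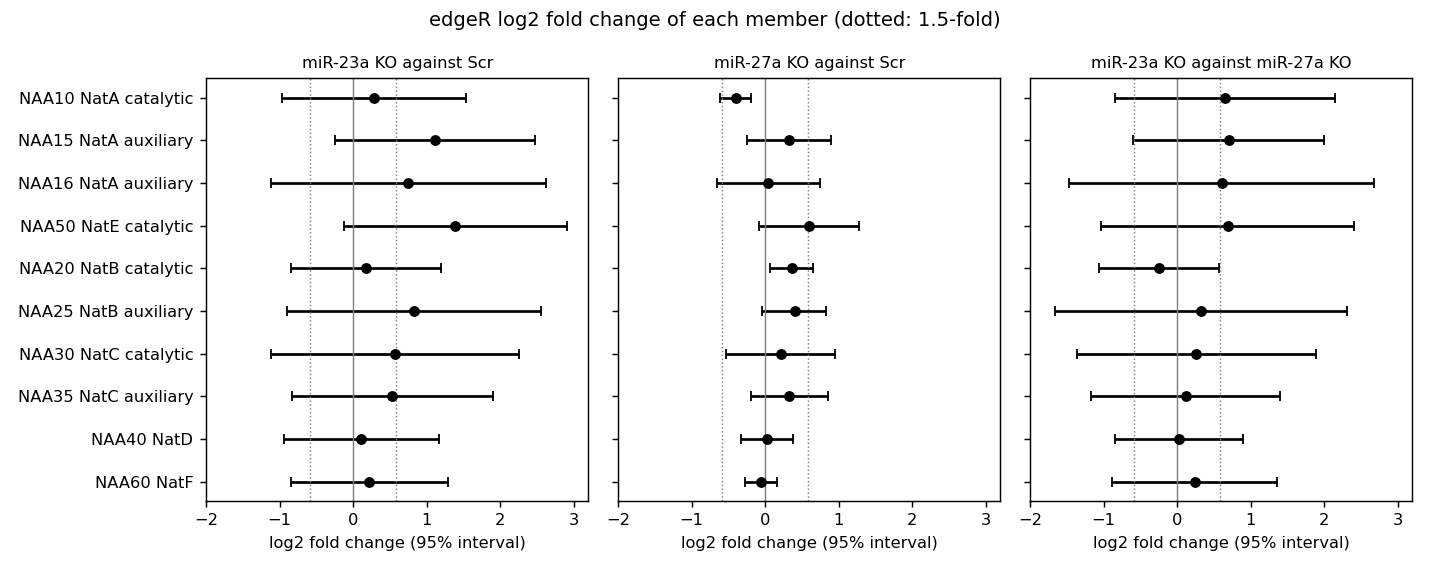
edgeR log2 fold change of each gene with its 95% interval in the 3 comparisons (2 against 2 libraries each), with dotted lines at 1.5-fold. The intervals are widest where miR-23a KO enters, and those of NAA10 and NAA20 in miR-27a KO against Scr leave out 0.

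The criteria of the study were a fold change over 1.5 and a q under 0.001, taken here as the adjusted p. By these, edgeR called none of the 10 genes in any comparison. The paper names no test for its own calls, and it reported far more genes past these thresholds in each knockout than edgeR called here. Its candidate targets, NAA50 included, were chosen among genes past them in both knockouts. The 2 sets of calls may thus rest on unlike tests. At that fold change with the adjusted p threshold at 0.05, none of the 10 genes was called by edgeR, DESeq2 or limma. In miR-23a KO against Scr 0% of 13786 genes were called by edgeR, 332 genes and 0 of the 10 had an unadjusted p under 0.05, DESeq2 called 26 genes and limma called 0. For miR-27a KO against Scr the called share was 0.0289% of 13820 genes with edgeR, and 10.3% with the threshold at 0.05, while DESeq2 called 895 genes and limma 3 by the criteria of the study. There 4447 genes had an unadjusted p under 0.05, NAA10 and NAA20 among them. Directly between the knockouts 0% of 13841 genes were called by edgeR, 1207 genes and 0 of the 10 had an unadjusted p under 0.05, DESeq2 called 236 genes and limma called 0. With 1 library left out, calls at 0.05 appeared. Without replicate 1 of miR-23a KO they were 3 of the 10 against Scr (NAA15, NAA50 and NAA25), where 10.1% of all genes tested were called, and without its replicate 2 they were 1 (NAA10), where 19.9% were. Without Scr replicate 2 they were 3 in miR-27a KO (NAA15, NAA50 and NAA35), where 27.0% were. Directly between the knockouts, the log2 fold changes of most members took opposite signs according to which miR-23a KO library was left out. NAA16, NAA25, NAA30 and NAA35 had log2 fold changes of 1.32, 1.04, 0.835 and 0.587 without replicate 1 of miR-23a KO. Without its replicate 2 they were -0.915, -1.21, -0.727 and -0.6.

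Counted by separation alone, NAA15, NAA50 and NAA20 (3 of the 10 genes) were higher in every miR-23a KO library than in every Scr library, where 9.91% of all genes tested were, and 0 were lower in every one, where 13.7% were. Each of these 3 had 1 miR-23a KO library within counting error of the nearest Scr library. In miR-27a KO 5 genes were above Scr in this way, NAA15, NAA50, NAA20, NAA25 and NAA35, where 33.4% of all genes tested were, and NAA10 was below, where 31.0% were. Of the 5, NAA15, NAA50 and NAA35 had 1 miR-27a KO library within counting error of the nearest Scr library.

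The fitted log2 fold change was above 0 for 10 of the 10 genes in miR-23a KO against Scr, with a median of 0.55. Over all genes tested it was above 0 for 63.0%, with a median of 0.16. With limma these medians were 0.33 and 0.06, and with the replicate block 0.36 and 0.07. Without Scr replicate 1 or replicate 2 the median of the 10 genes was 0.28 and 0.81. The fold change was above 0 for 8 of them, with a median of 1.03, when replicate 1 of miR-23a KO was left out. It was above 0 for 5, with a median of -0.02, when replicate 2 of miR-23a KO was left out. Over all genes tested the medians were then -0.04 and -0.07. The GC content and length correction put NAA30 at -0.05 and the median of the 10 at 0.17, beside 0.09 over all genes tested. In miR-27a KO against Scr it was above 0 for 8 of 10, with a median of 0.27, beside 50.9% and a median of 0.01, the exceptions being NAA10 and NAA60. It was 6 of 10 without Scr replicate 1 (median 0.06) and 6 without replicate 1 of miR-27a KO (median 0.36), and 8 without either of the other libraries. With the GC content and length correction it was also 8 of 10, with a median of 0.15 beside 0.06 over all genes tested, NAA60 at 0.25 and NAA16 at -0.19. With all libraries NAA50 was highest of the 10 in both comparisons, but at place 4 without replicate 2 of miR-23a KO and at place 6 without replicate 2 of miR-27a KO. It was at place 2 in miR-27a KO with the replicate block and the GC content and length correction together. The study selected NAA50 partly for being higher in both knockouts of these libraries, so its place and the next shares are not independent of that choice. With all libraries, 1.86% of all genes tested had a log2 fold change at least as high as that of NAA50 in the miR-23a KO comparison, and 10.8% in that of miR-27a KO. Directly between the knockouts it was above 0 for 9 of 10, with a median of 0.29, beside 57.6% and a median of 0.11, and without replicate 1 or replicate 2 of miR-23a KO for 7 and 2 of 10, with medians of 0.71 and -0.35, beside 0.01 and -0.08 over all genes tested. With the GC content and length correction it was 6 of 10 with a median of 0.10, beside 0.05 over all genes tested. With the replicate block it was 8 of 10 and with limma 7 of 10, each with a median of 0.12 beside 0.02. The log2 fold change of NAA50 between the knockouts was 0.69 ± 0.66 (SE, edgeR adjusted p = 0.846). It was 1.30 with replicate 1 of miR-23a KO left out and -0.42 with replicate 2 left out. Over the alternatives that kept all libraries, the lowest adjusted p was 0.502 (edgeR), with the GC content and length correction. Against Scr, all genes tested with a 3′-UTR match to the miR-23a-3p seed had a median log2 fold change of 0.23 in miR-23a KO, beside 0.15 for genes without one. Without replicate 1 of miR-23a KO, an alternative chosen after seeing the data, these medians were 0.45 and -0.15, and without its replicate 2 they were -0.34 and 0.04. For the miR-27a-3p seed in miR-27a KO these medians were 0.07 and -0.01, and they were not repeated with a library left out. None of these medians was corrected for GC content or length, and the part of the seed match in them was not tested.

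The 10 genes differed in base composition, and across them the difference of miR-23a KO replicate 2 from the Scr mean had a Spearman correlation of -0.92 with GC content. NAA15, NAA50, NAA30, NAA16, NAA25 and NAA35 have transcripts of 37.7% to 41.1% GC, NAA20 has 46.7%, NAA40 51.7%, NAA10 59.3% and NAA60 60.8%. In miR-23a KO replicate 2 the first 6 lay 0.96 to 1.93 above the Scr mean on the log2 CPM scale, NAA20 and NAA40 0.20 and 0.21 above it, and NAA10 and NAA60 at -0.67 and -0.33. In miR-23a KO replicate 1 the same 6 genes lay between -0.75 and 0.33, and NAA10 and NAA60 at 0.85 and 0.59. Across the 10 genes, the difference between these libraries had a Pearson correlation of -0.94 and a Spearman correlation of -0.75 with GC content, and across 12853 genes it was -0.68 with GC content and 0.48 with log2 length. Between the Scr libraries the corresponding Pearson values with GC content were -0.79 and -0.42, and between the miR-27a KO libraries -0.32 and -0.05. For the difference from the Scr mean, the Pearson correlation with GC content was -0.75 and -0.68 across the 10 genes for replicates 1 and 2 of miR-27a KO, and -0.25 and -0.26 across all 12853. For replicates 1 and 2 of miR-23a KO it was 0.69 and -0.94 across the 10 genes, and 0.36 and -0.63 across all. The Spearman correlation across the 10 genes was weaker for replicate 1 of miR-23a KO (0.35) and for replicates 1 and 2 of miR-27a KO (-0.54 and -0.47). These are correlations across genes of the same libraries, and genes are not independent replicates. With each library corrected for GC content and length, NAA50 had log2 fold changes of 0.83 in the first comparison with Scr and 0.42 in the second, with edgeR adjusted p-values of 0.721 and 0.264. The part of GC content in the uncorrected values was not tested further.

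**Figure D4:**
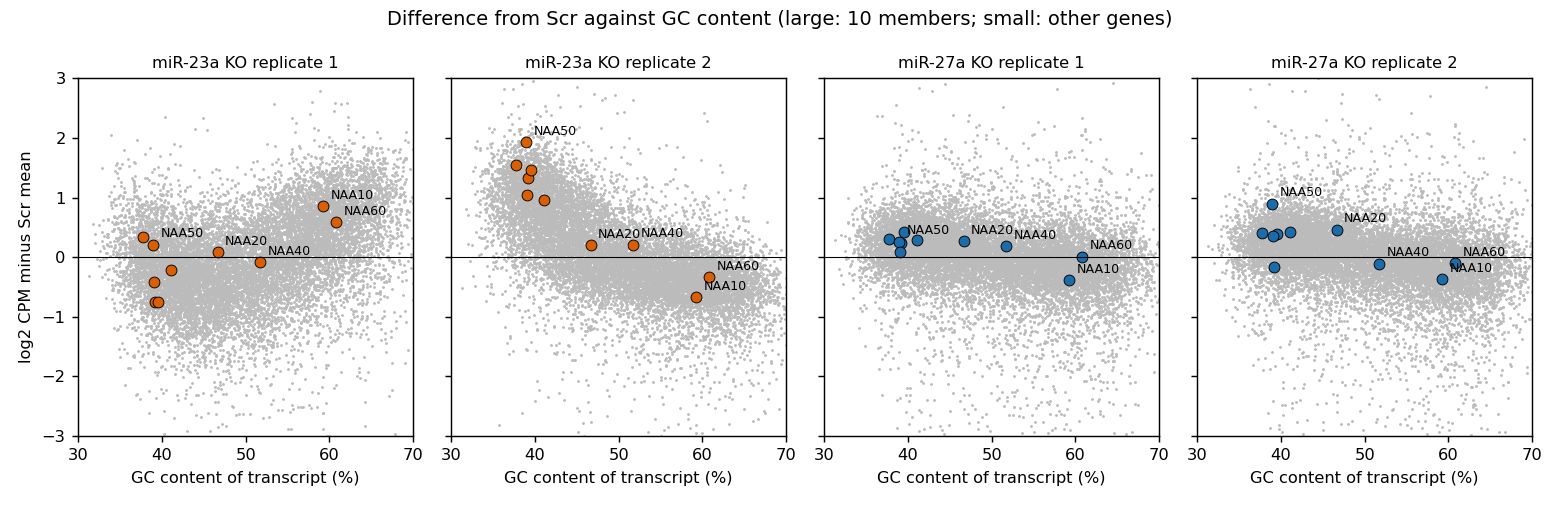
Difference of log2 CPM from the Scr mean against the GC content of the transcript in each knockout library, with the 10 genes as large points and other genes as small grey points (genes beyond the axes are not drawn). In miR-23a KO replicate 2 the members of low GC content, NAA50 at 1.93 among them, lie above 0 and NAA10 and NAA60 below it, and in replicate 1 NAA10 and NAA60 lie above 0.

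The 5 genes whose log2 CPM profile was closest to that of NAA50 over the 6 libraries, by the smallest root mean square difference after centring, were SLF1 (0.114), MLLT3 (0.158), NEDD1 (0.159), DNAJB4 (0.172) and ZNF189 (0.175), among 13555 genes. SLF1 had 0.889 and 1.41 CPM in the Scr libraries, 1.07 and 6.15 in those of miR-23a KO, and 1.39 and 2.46 in those of miR-27a KO. Like NAA50, it was highest in miR-23a KO replicate 2 and second highest in miR-27a KO replicate 2. The transcripts of the 5 genes have 33.1% to 42.1% GC. Within the 10 genes, NAA15 was the closest to NAA50, at place 61 with 0.239, and NAA10 the farthest, at place 11361 with 1.06.

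Among the other N-terminal acetyltransferase genes, 3 of 4 were expressed enough to be tested. With all libraries, in each comparison 0 of them passed 1.5-fold at an adjusted p under 0.05 with edgeR, DESeq2 or limma, and 0 had an unadjusted p under 0.05. NAA38, a further NatC subunit, had 27.2 and 29.2 CPM in the Scr libraries, 76.9 and 18.7 in those of miR-23a KO, and 30.1 and 30.2 in those of miR-27a KO. HYPK, which binds NatA, had the lowest log2 fold change of the list in miR-23a KO, -0.31 ± 0.47 (SE), and NAA80, the actin acetyltransferase, the lowest in miR-27a KO, -0.01 ± 0.19. Without replicate 1 or replicate 2 of miR-23a KO, alternatives for the lists that were chosen after seeing the data, that of HYPK was -0.63 and -0.11. Calls at 0.05 with edgeR then appeared, 0 and 1 of the 3 genes against Scr, NAA38 being the one, where 10.1% and 19.9% of all genes tested were called, and 3 and 2 between the knockouts, where 35.4% and 52.5% were. NAA11, the paralog of NAA10, had 0 counts in 5 libraries and 1 in the other. Both NAA38 and NAA80 were highest in miR-23a KO replicate 1 and lowest in replicate 2, as NAA10 and NAA60 were.

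Of 10 genes for other N-terminal modifications, with all libraries 0 passed the same thresholds in miR-23a KO against Scr with any of these tools, and 0 had an unadjusted p under 0.05. There 7 of 10 had a log2 fold change above 0, with a median of 0.03, beside 63.0% and 0.16 over all genes tested. METAP2, a methionine aminopeptidase, had the highest log2 fold change at 1.03 ± 0.58 (SE). QPCT, with 4 to 14 counts in these libraries, had the lowest at -0.26 ± 0.95. Without replicate 1 or replicate 2 of miR-23a KO the values were 1.49 and 0.17 for METAP2 and 0.15 and -1.08 for QPCT. Then 5 of 10 were above 0 in each fit, with medians of -0.04 and 0.01, and 1 (METAP2) and 3 (METAP1, NTMT1 and QPCTL) were called at 0.05, with 2 and 5 of 9 between the knockouts, beside the same shares of all genes. In miR-27a KO against Scr 9 were tested, and 2 were above 0 with a median of -0.22, beside 50.9% and 0.01 over all genes tested. Of the 9, 3 had an unadjusted p under 0.05 with edgeR, beside 32.2% of all genes tested. With all 3 tools 1 of the 9 fell past these thresholds, PDF, the mitochondrial peptide deformylase, where 10.3% of all genes tested were called by edgeR. PDF was at 45.5 and 47.5 CPM in Scr and at 30.7 and 27.4 in miR-27a KO, with a log2 fold change of -0.70 ± 0.11 (SE, edgeR adjusted p = 0.0232, lower in 2 of 2 libraries). The call on PDF was lost with the GC content and length correction (log2 fold change -0.39, edgeR adjusted p = 0.119). It was also lost with the replicate block and the correction together (-0.389, edgeR adjusted p = 0.127) and in the fit of all 6 libraries (-0.694, edgeR adjusted p = 0.849). With replicate 1 or replicate 2 of miR-27a KO left out the call was lost as well, at -0.782 and -0.611. Over the alternatives that kept all libraries the adjusted p ranged from 0.00262 (DESeq2) to 0.849 (edgeR). The miR-23a KO libraries held PDF at 61.7 and 32.4 CPM, on either side of Scr. METAP1, given here after its values were seen, had a log2 fold change of 0.42 ± 0.09 in miR-27a KO (edgeR adjusted p = 0.0374, where 14.0% of all genes tested had one under 0.05), less than 1.5-fold, with 53.5 and 54.7 CPM in Scr and 72.1 and 74.2 in miR-27a KO. Its adjusted p was above 0.05 with the GC content and length correction (0.242, edgeR adjusted p = 0.154) or that and the replicate block (0.243, 0.225), and with the block alone (0.418, 0.0509). It was also above 0.05 without the filter (0.436, 0.0584), with all 6 libraries in 1 fit (0.421, 0.991) and without replicate 1 or replicate 2 of miR-27a KO (0.439, 0.39 and 0.402, 0.449). Over the alternatives that kept all libraries, the adjusted p of METAP1 ranged from 0.0364 (limma) to 0.991 (edgeR). All alternatives for METAP1 were chosen after seeing the data.

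Of 12 genes for recognition and removal of N termini, with all libraries 0 passed these thresholds in any comparison with edgeR, DESeq2 or limma, and 0, 2 and 0 had an unadjusted p under 0.05 in miR-23a KO, in miR-27a KO and directly between them, beside 2.41%, 32.2% and 8.72% of all genes tested. Against Scr, 7 of the 12 were above 0 in miR-23a KO (median 0.30), beside 63.0% of all genes tested (median 0.16). In miR-27a KO 8 were (median 0.43), beside 50.9% (median 0.01). The ubiquitin ligase gene UBR1 had the highest log2 fold change in miR-23a KO at 1.25 ± 0.78 and UBR4 the lowest at -0.48 ± 0.57, and in miR-27a KO the highest was 0.69 ± 0.23 for ZYG11B, a reader of N-terminal glycine (edgeR adjusted p = 0.105), and the lowest -0.22 ± 0.11 for ZER1. Without replicate 1 or replicate 2 of miR-23a KO, UBR1 was at 1.83 and 0.01 against Scr, and UBR4 at 0.00329 and -1.42. The median of the 12 was then 0.57 and -0.51, beside -0.04 and -0.07 over all genes tested. Of 5 genes for factors that meet the nascent chain, with all libraries 0 passed with any of the 3 tools, and 0, 1 and 1 had an unadjusted p under 0.05 in the same order of comparisons. All 5 were above 0 in miR-23a KO (median 0.42) and 4 in miR-27a KO (median 0.09), beside the same shares of all genes tested. Without replicate 1 or replicate 2 of miR-23a KO, 4 of the 5 were above 0 against Scr in each fit, with medians of 0.66 and 0.25. NACA was highest of these in miR-27a KO at 0.30 ± 0.08 (edgeR adjusted p = 0.073) and HSPA14 highest in miR-23a KO at 0.86 ± 0.45, with 23.9 and 28.1 CPM in Scr and 46.2 and 45.9 in miR-23a KO. HSPA14, a ribosome-bound chaperone, was thus close in both miR-23a KO libraries and above both Scr libraries, where 9.91% of all genes tested were. It was not called in miR-23a KO against Scr (edgeR unadjusted p = 0.0943). Its log2 fold change was 0.83 and 0.80 without replicate 1 or replicate 2, and in miR-27a KO it was the lowest of the list at -0.16 ± 0.14. Compared directly between miR-23a KO and miR-27a KO, HSPA14 had a log2 fold change of 0.95 ± 0.31 (edgeR adjusted p = 0.461), NTMT1 of 1.26 ± 0.65, METAP1 of -0.69 ± 0.42 and NTAN1 of -0.85 ± 0.35, none of them called. Without replicate 1 or replicate 2 of miR-23a KO these were 0.94 and 0.97 for HSPA14, 0.10 and 1.90 for NTMT1, -0.31 and -1.22 for METAP1, and -0.63 and -1.12 for NTAN1. HSPA14 and NTAN1 were then called at 0.05 in both fits, where 35.4% and 52.5% of all genes tested were, and NTMT1 and METAP1 in the fit without replicate 2.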

How the data were processed

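The authors deposited 1 table of expected counts per gene, under column names that say FPKM. Its column totals differ between libraries, and its values were treated as estimated counts and rounded. The processing notes name HISAT, StringTie, Cufflinks and GATK without roles. The counting tool, its use of strand and the genome build are not given in the sources used here. For each comparison only the 4 libraries of its groups entered the fit, with edgeR 4.0.16 in R 4.3.3 (filterByExpr, TMM, quasi-likelihood test, Benjamini-Hochberg adjustment over all genes tested). All 10 members passed the filter in each comparison. Alternatives were median-ratio size factors, DESeq2 1.42.0, limma 3.58.1 on log2(CPM + 0.5), no filter, all 6 libraries in 1 fit, a replicate block, a GC content and length correction (loess span 0.5), both together, and leaving out each library. The fits were also run on simulated data, and the outcome is not given or relied on here. Lengths and GC content came from the longest GENCODE 29 transcript whose RefSeq ID the table lists, else the longest coding or the longest one, a rule settled after the annotation was seen, for 17620 of 20026 genes. An exact permutation test of 2 against 2 libraries cannot go below 0.333, so none was used. Libraries of 14405250 to 16515261 counts gave counting errors of 2.14% to 16.9% for the members, which cover counting only. The members and lists were chosen with earlier results of these data known. Named genes of the other lists were those past 1.5-fold at an adjusted p under 0.05, up to 4 per list and comparison by fold change, or else those with the highest and the lowest fold change, and the 5 genes most like NAA50 were added. Mesenchymal markers COL1A2, THY1 and LUM were not analysed here.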

Additional observations from a re-analysis of the deposited data

How the results depend on the processing

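None of the 10 genes was called at an adjusted p under 0.001 in an alternative that kept all libraries, and 17 of their 240 log2 fold changes changed sign there. The number of genes called in miR-23a KO against Scr was 0, and 26 with DESeq2, 26 with the replicate block and 2 with the block and the GC content and length correction. In miR-27a KO against Scr it was 4, and 2 with median-ratio size factors, 895 with DESeq2, 0 without the filter, 0 with all 6 libraries in 1 fit, 237 with the replicate block, 25 with the GC content and length correction and 262 with both. Between the knockouts it was 0, and 236 with DESeq2, 196 with the replicate block and 194 with the block and the correction. At an adjusted p under 0.05 the miR-27a KO calls were 487 higher and 931 lower, and 701 and 782 with the correction. Log2 fold changes that changed sign with the correction alone were, against Scr, NAA30 (-0.0498) in miR-23a KO, NAA16 (-0.192) and NAA60 (0.249) in miR-27a KO, and, between the knockouts, NAA25 (-0.00148), NAA30 (-0.0783) and NAA60 (-0.0689). With the replicate block as well they were, against Scr, NAA16 (-0.0166) and NAA30 (-0.0512) in miR-23a KO, NAA16 (-0.208) and NAA60 (0.25) in miR-27a KO, and, between the knockouts, NAA25 (-0.0703), NAA30 (-0.0789) and NAA60 (-0.0683). Between the knockouts NAA25 also changed sign with the block alone (-0.0664) and with limma (-0.0659), NAA35 with limma (-0.000308) and NAA40 without the filter (-0.00144). NAA50 was above 0 in each of these alternatives, at 0.823 to 1.38 in miR-23a KO against Scr, 0.393 to 0.621 in miR-27a KO against Scr and 0.421 to 0.685 between the knockouts. With the replicate block it was 1.13, 0.581 and 0.485. Leaving out each library in turn, where a lone library is assumed to vary like the other group, gave 0 to 143 genes called in miR-23a KO against Scr, 30 to 1960 in miR-27a KO against Scr and 17 to 5495 between the knockouts, and 5 to 10, 6 to 8 and 2 to 9 of the 10 genes above 0 in the same order. The log2 fold changes then ranged, in miR-23a KO against Scr, from -0.665 to 0.829 (NAA10), -0.879 to 1.41 (NAA16), -0.815 to 1.49 (NAA25), -0.520 to 1.10 (NAA30), -0.276 to 0.967 (NAA35), -0.104 to 0.220 (NAA40) and -0.322 to 0.570 (NAA60). In miR-27a KO against Scr they ranged from -0.199 to 0.25 (NAA16), -0.0314 to 0.511 (NAA30) and -0.132 to 0.169 (NAA40). Between the knockouts they ranged from -0.321 to 1.23 (NAA10), -0.0377 to 1.18 (NAA15), -0.915 to 1.32 (NAA16), -0.419 to 1.30 (NAA50), -1.21 to 1.04 (NAA25), -0.727 to 0.835 (NAA30), -0.600 to 0.587 (NAA35), -0.126 to 0.172 (NAA40) and -0.314 to 0.635 (NAA60). The lowest and highest values in comparisons with miR-23a KO came mostly from leaving out 1 of its own libraries. The alternatives for PDF and METAP1 and those below were chosen after seeing the data. Without each miR-23a KO library, the values ranged, against Scr, from -0.584 to 1.42 (NAA38), -1.08 to 0.15 (QPCT), -1.42 to 0.00329 (UBR4) and -0.342 to 0.25 (BTF3), and, between the knockouts, from -0.715 to 1.35 (NAA38), -0.593 to 1.17 (UBR1) and -0.472 to 0.177 (BTF3). The median of genes with a miR-23a-3p seed match ranged from -0.338 to 0.448, and of those without one from -0.154 to 0.0372. The cause was not tested.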
